A study of Mus musculus with 16 samples.

Results

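The 49 genes described here are the machinery of cell division, and their mRNA was followed in the right neocortex of mice from the first postnatal week to adulthood and after removal of cortex on the opposite side. They were listed by name, with no measured value in the rule, but with earlier results of these data known. They make up 49 of the 20134 genes that carried a gene name and a value on all 16 arrays. All 49 had a probe, and for the 13 with more than 1 probe the brightest over all arrays was taken. The study compared recovery after a neonatal and an adult lesion of the left cerebral cortex. RNA came from the intact right side of C57BL/6J mice, rostral to bregma, and was pooled. The methods give 4 male mice for each group (control, NBH and ABH) and do not state the number for each age or time. The 4 control pools were taken at postnatal day (P) 7, P14, P35 and at 10 weeks. Neonatal brain hemisuction (NBH) is aspiration of the left cortex at P7, with tissue taken 1 week later at 14 days and 4 weeks later at 35 days of age. Adult brain hemisuction (ABH) is aspiration of the left cortex in adults, over a wider area according to the methods, with tissue taken 1 week later at 11 weeks and 4 weeks later at 15 weeks of age. The NBH pools were set against controls of their own age, whereas both ABH pools were set against the control pool of 10 weeks, which was younger than either.

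Each of the 8 pools was hybridized to 2 Agilent 8 × 60 K arrays, with Cy3 on a first chip and with Cy5 on the other. Both arrays of a pool carry the same RNA, so that their spread is technical, and with 1 pool per condition no test between conditions was possible. Levels are log2 signals relative to the 75th percentile of the array and are given as the Cy3 and then the Cy5 value, and each change is the mean of the same-dye differences ± SD (n = 2 dyes). A gene was called higher at 1.5-fold or more, or lower at 0.75-fold or less, when both dyes passed the limit. Where a probe was above background on neither array of a pool, only a bound is given.

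Dividing cells pass through a G1 phase, a phase of DNA synthesis and mitosis, and different proteins serve each step. Cyclins bind and switch on cyclin-dependent kinases, licensing factors load the Mcm helicase onto replication origins, and kinetochores, spindle motors and the anaphase-promoting complex then separate the copied chromosomes. Cortical neurons are born before birth, and the cells that still divide in the postnatal cortex are mainly glia, their progenitors and vascular cells. Adult cortex holds few dividing cells, among them oligodendrocyte progenitors, while microglia and astrocytes can divide after injury. Many genes of mitosis share promoter elements, namely the cell cycle genes homology region (CHR), read by the DREAM and MuvB complexes, and the CCAAT box bound by NF-Y, and genes of DNA replication often carry sites for E2F factors.

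The promoters of 41 members were listed in the RefSeq table for GRCm38.p6, each spanning 250 bases before to 50 bases after the first listed start. *Ccnd1*, *Ccne2*, *Mcm4*, *Ccna2*, *Foxm1*, *Aurkb*, *Kif20a* and *Tpx2* had no entry. Searched on both strands, a CHR (TTTGAA or TTCGAA) lay in 25 of 41 member promoters (61.0%), against 19.4% of all 27025 promoters of that length. A CCAAT box (CCAAT) lay in 30 of 41 (73.2%), against 37.9% of all promoters, and an E2F motif (any of TTCCCGC or TTGGCGC or TTCGCGC or TTGCCGC) in 12 of 41 (29.3%), against 9.69%. CHR and CCAAT box stood together in 23 of 41 (56.1%), against 7.7% of all promoters. By role, a CHR was found in 6 of 7 promoters of spindle and cytokinesis genes, in 3 of 3 of the mitotic exit genes and in 4 of 5 of the mitotic cyclins and kinases, but in 0 of 4 of the DNA synthesis genes and 0 of 2 of the G1 genes. E2F letters were found in 6 of 8 promoters of licensing and origin genes and in 0 of 7 of the checkpoint and kinetochore genes. These groups hold 2 to 8 promoters each, and a difference between roles was not tested.

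The following 6 promoters are shown because they cover the main patterns below, 5′ to 3′ on the strand of the gene, with the letters of every match in capitals. *Mki67* (chr7:135716330-135716629, minus strand), *Cdk1* (chr10:69352863-69353162, minus strand), *Ccnb2* (chr9:70421505-70421804, minus strand) and *Cdca3* (chr6:124829926-124830225, plus strand) carry CHR and CCAAT letters and were high at P7 and again 1 week after ABH, and *Mki67* and *Cdk1* also hold E2F letters. *Mcm3* (chr1:20820263-20820562, minus strand) carries E2F and CCAAT letters without a CHR, and its last E2F matches overlap on opposite strands. *Ccne1* (chr7:38107441-38107740, minus strand), a G1 cyclin that was not called in any comparison, holds none of the motifs.
Mki67: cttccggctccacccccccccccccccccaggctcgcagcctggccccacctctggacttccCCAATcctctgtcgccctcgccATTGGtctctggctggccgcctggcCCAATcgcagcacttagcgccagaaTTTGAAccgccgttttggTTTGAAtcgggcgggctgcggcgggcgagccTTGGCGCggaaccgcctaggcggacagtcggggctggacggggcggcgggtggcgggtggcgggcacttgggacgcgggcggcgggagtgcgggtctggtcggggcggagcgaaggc
Cdk1: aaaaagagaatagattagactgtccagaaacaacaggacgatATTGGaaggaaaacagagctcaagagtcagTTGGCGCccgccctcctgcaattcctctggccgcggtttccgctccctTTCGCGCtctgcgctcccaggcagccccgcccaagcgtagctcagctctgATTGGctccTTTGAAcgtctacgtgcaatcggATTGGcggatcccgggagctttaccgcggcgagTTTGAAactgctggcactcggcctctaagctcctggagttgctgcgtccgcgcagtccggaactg
Ccnb2: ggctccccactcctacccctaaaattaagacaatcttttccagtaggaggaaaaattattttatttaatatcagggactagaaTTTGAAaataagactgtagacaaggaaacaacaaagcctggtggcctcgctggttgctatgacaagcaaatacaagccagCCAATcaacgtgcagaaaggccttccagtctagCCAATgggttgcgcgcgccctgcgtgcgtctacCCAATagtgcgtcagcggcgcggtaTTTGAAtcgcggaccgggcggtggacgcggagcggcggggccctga
Cdca3: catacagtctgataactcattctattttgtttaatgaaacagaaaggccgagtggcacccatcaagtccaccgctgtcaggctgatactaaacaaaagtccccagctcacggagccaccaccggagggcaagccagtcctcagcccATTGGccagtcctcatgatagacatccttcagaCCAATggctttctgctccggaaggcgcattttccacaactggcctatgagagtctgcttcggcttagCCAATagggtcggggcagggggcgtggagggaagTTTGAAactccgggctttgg
Mcm3: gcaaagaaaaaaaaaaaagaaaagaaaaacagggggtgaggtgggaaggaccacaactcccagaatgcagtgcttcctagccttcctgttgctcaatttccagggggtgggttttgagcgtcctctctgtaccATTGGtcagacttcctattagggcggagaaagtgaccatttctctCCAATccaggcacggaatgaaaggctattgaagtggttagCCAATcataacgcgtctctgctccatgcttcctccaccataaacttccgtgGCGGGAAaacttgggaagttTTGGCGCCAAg
Ccne1: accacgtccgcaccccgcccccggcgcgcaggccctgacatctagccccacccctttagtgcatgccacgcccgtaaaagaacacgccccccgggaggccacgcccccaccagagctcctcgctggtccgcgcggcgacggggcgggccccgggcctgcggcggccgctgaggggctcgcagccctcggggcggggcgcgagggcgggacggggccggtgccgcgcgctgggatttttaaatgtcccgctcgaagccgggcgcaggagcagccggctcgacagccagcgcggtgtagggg
Of the 33 CHR matches, 14 began after the start and 7 within 60 bases before it, whereas 29 of 69 CCAAT matches lay within 60 bases before the start and 3 after it. Among members with a promoter, a CHR was found in 13 of the 23 called higher 1 week after ABH (56.5%) and in 12 of the other 18 (66.7%), and E2F letters in 7 of 23 (30.4%) and 5 of 18 (27.8%).

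**Figure D1:**
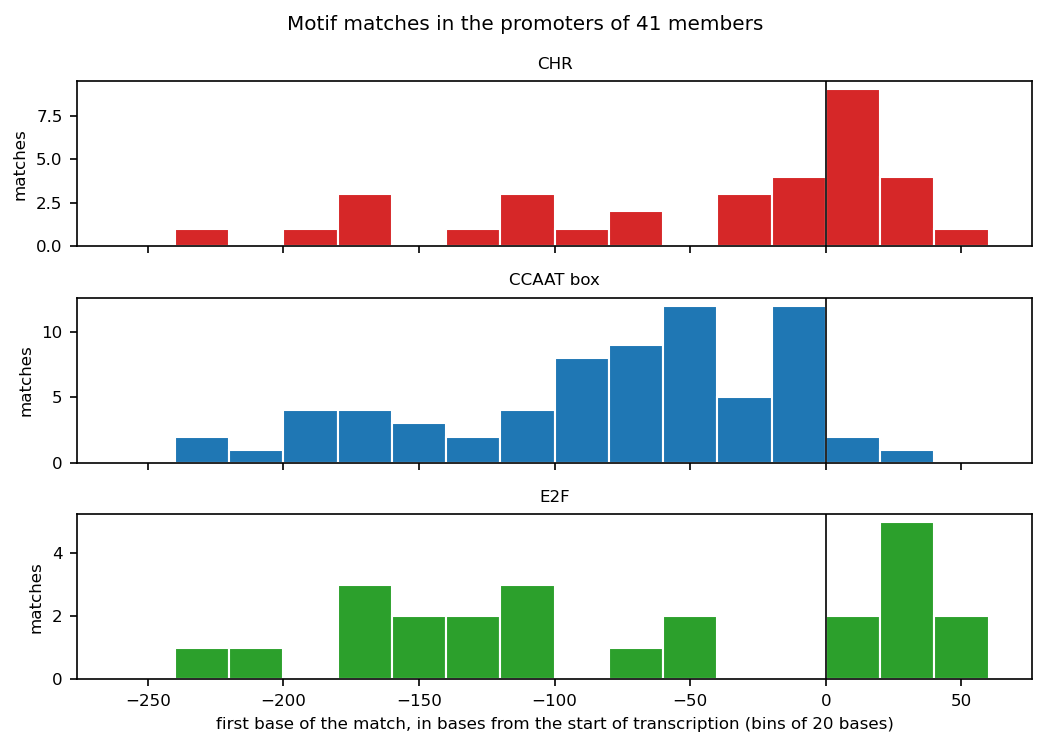
Number of motif matches (vertical axis) by the position of their first base relative to the start of transcription (horizontal axis, bases, bins of 20) in the promoters of 41 members, with the start as a vertical line. CCAAT matches lie mostly upstream, 3 of 69 being after the start, and CHR matches gather around the start, 14 of 33 being after it.

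Well above background were 60.2% to 72.2% of the 59305 gene spots per array, and 0.755% to 1.43% in the unlabeled channel. All 8 neuronal markers were above background on both arrays of every pool, and so were 8 striatal markers. Markers of choroid plexus, among them *Ttr*, stood apart in 3 pools, with a summed level of 40.3 in NBH 1 week, 19.0 in NBH 4 weeks and 31.1 in ABH 4 weeks (units of the 75th percentile signal) against 1.67 to 2.60 in the 4 control pools and 1.87 in ABH 1 week. Striatal markers, in the same units, were at 132 in NBH 1 week against 166 in control P14. They were at 111 in NBH 4 weeks against 159 in control P35. In ABH 1 week and ABH 4 weeks they were at 119 and 180, against 117 in the control of 10 weeks. Their part in the levels of the members was not tested. All control pools lay in row 1 and all lesion pools in row 2 of the chips, so that position and surgery cannot be told apart. Of the 49 members, 35 were well above background on all 16 arrays, and *Ccne2*, *Aurkb*, *Cenpf* and *Ncapg* were not above it on both arrays of any pool and could not be compared. No member was saturated.

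**Figure D2:**
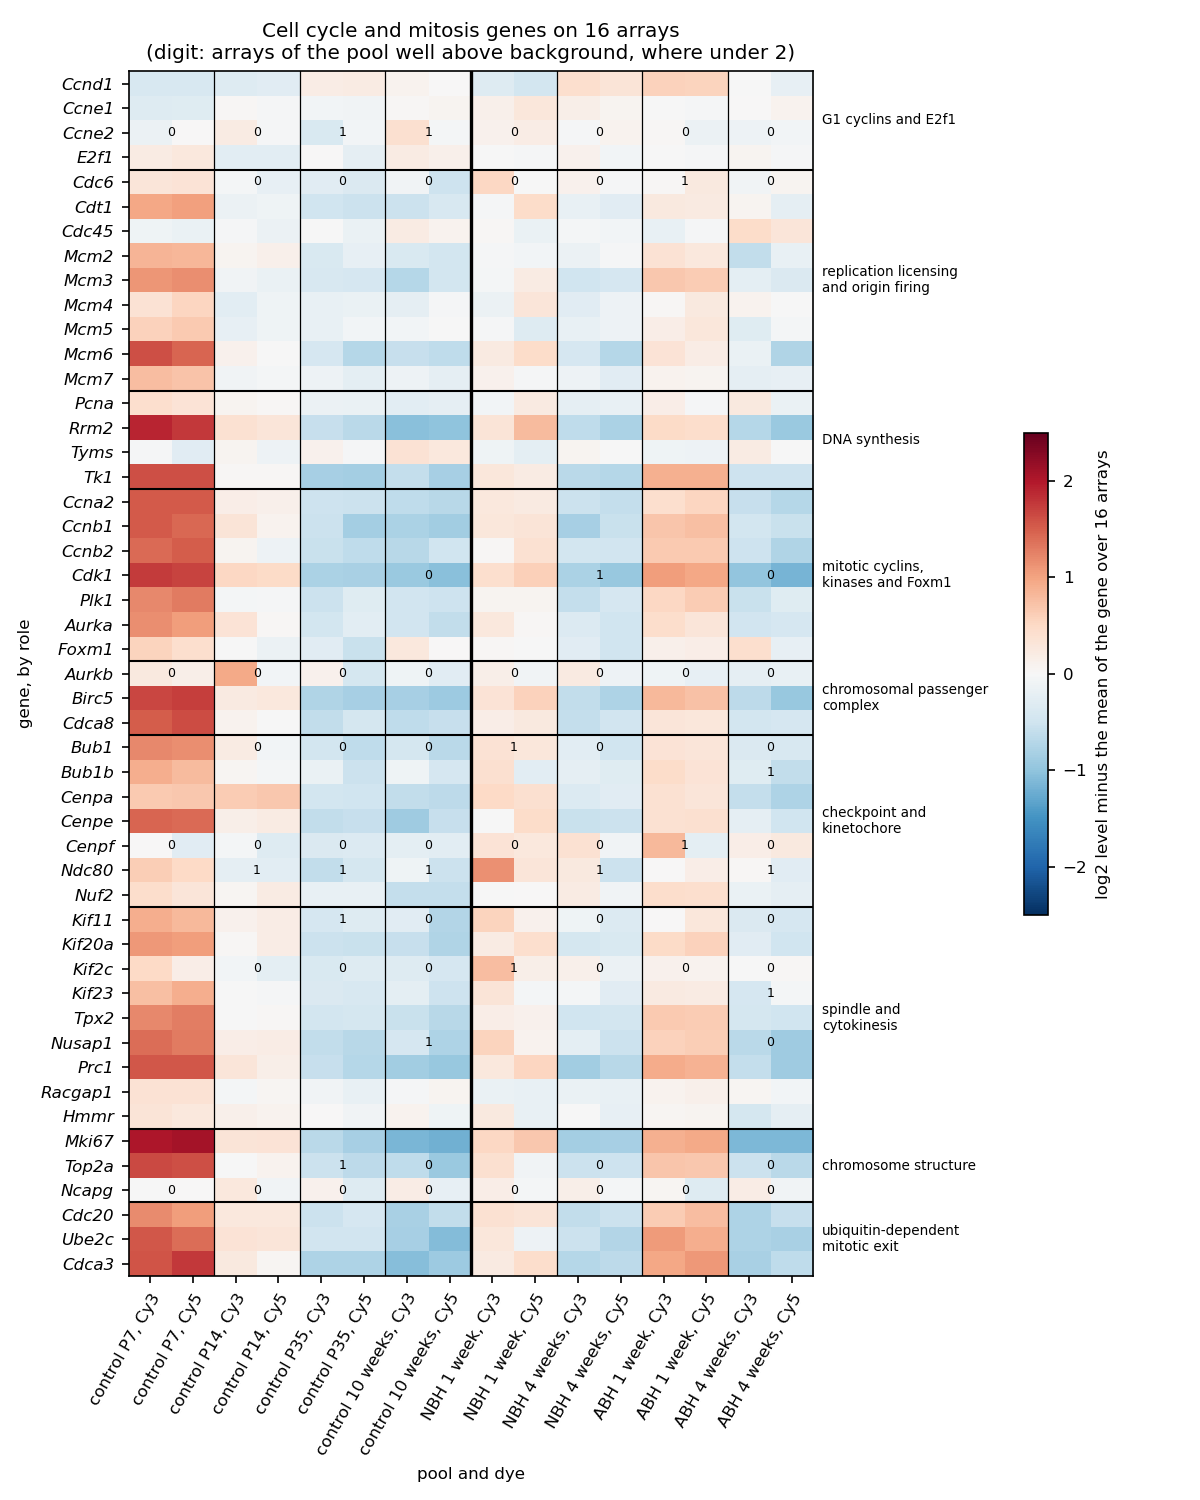
Level of each of the 49 members (rows, grouped by role) on each of the 16 arrays (columns, pool and dye), as log2 signal minus the mean of that gene over all arrays, with red above and blue below that mean. Digits give the number of arrays well above background where it was under 2, and most rows are reddest at P7 and red again in ABH 1 week.

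Genes of cell division declined in the control cortex over the first postnatal weeks. Between P7 and P14, 34 of the 45 members compared were lower and 0 were higher, where 14.9% of all genes were lower and 8.46% higher. The median change of the members was -0.92, against -0.02 over all genes. Between P14 and P35 21 of 41 members were lower and 0 higher (all genes, 6.14% lower and 2.36% higher), with a median of -0.51, and 20 members were lower at both steps. From P35 to 10 weeks 0 of 39 members were lower and 0 higher (0.824% and 1.78% of all genes), and the median was -0.08. In this last step 20 of the 37 members above background in both pools were below and 9 above their P35 level with both dyes. This step depended on the processing. Up to 7 members were lower in the unscaled value table, where 451 of all genes were lower against 134 in the main analysis. The median reached -0.32 with median scaling, which also moved the median of all genes from 0.02 to -0.22. Over the whole span from P7 to 10 weeks, 36 of 45 members were lower, 5 of them as bounds, and 0 were higher, where 21.2% of all genes were lower and 15.4% higher. For 31 of the 39 members above background on both arrays at P7, P14 and P35, P7 lay above P14 and P14 above P35 with both dyes. For these orders between ages, and for the 20 members lower at both steps, the share of all genes was not counted. In pooled tissue, fewer dividing cells and less mRNA in each cell cannot be told apart.

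*Mki67* encodes the Ki-67 protein that coats mitotic chromosomes and is the standard marker of dividing cells. Its level was 1.30 and 1.36 at P7, -0.40 and -0.38 at P14, -1.39 and -1.55 at P35 and -1.85 and -1.92 at 10 weeks (Cy3 and Cy5). No dye pair overlapped with that of a neighboring age. The first step was -1.72 ± 0.026 on the log2 scale, or 3.29-fold lower, and over the whole span *Mki67* was 9.28-fold lower. *Top2a*, the topoisomerase that untangles replicated DNA, was at -1.24 and -1.27 at P7 and -2.90 and -2.79 at P14, and by 10 weeks it was above background on neither array, so that it was at least 5.29-fold lower.

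The mitotic cyclins and kinases were lower at P14 in 7 of 7 cases. *Ccnb2*, a cyclin B that activates Cdk1 at the entry into mitosis, was at 0.60 and 0.69 at P7, -0.74 and -0.95 at P14, -1.39 and -1.46 at P35 and -1.52 and -1.31 at 10 weeks. Its values at P35 and 10 weeks overlapped. The change from P7 to P14 was -1.38 ± 0.029 for *Ccna2*, the cyclin of DNA synthesis and early mitosis, and -1.29 ± 0.095 for *Ccnb1*, of which a dimmer probe was not called (-0.24 as a bound). *Plk1* and *Aurka*, kinases of centrosome maturation and spindle assembly, changed by -1.29 ± 0.047 and -0.92 ± 0.14. *Cdk1*, the kinase of mitotic entry, took part of its decline later, with -1.21 ± 0.011 between P7 and P14 and -1.30 ± 0.008 between P14 and P35, and it was above background on neither array at 10 weeks (at least 6.51-fold lower than at P7). Its dimmer probes differed, with log2 changes from P7 to 10 weeks of 0.61 and -0.63, both as bounds and not called, so that the gene is uncertain. *Foxm1*, a transcription factor of mitotic genes, was an exception in adults. It was at -1.82 and -1.94 at P7, -2.66 and -2.94 at P35 and -2.10 and -2.36 at 10 weeks, so that its last step was 0.57 ± 0.014 (just under the limit for a call) and its whole change -0.35 ± 0.098 was not called.

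Genes of mitotic exit were lower in 3 of 3 cases at P14 and again at P35. *Ube2c*, the ubiquitin-conjugating enzyme of the anaphase-promoting complex, was at -0.089 and -0.25 at P7, -1.31 and -1.34 at P14, -2.11 and -2.13 at P35 and -2.48 and -2.74 at 10 weeks, 5.41-fold lower in all, and its last step of -0.49 ± 0.17 passed the limit with 1 dye only. Another probe of *Ube2c* was lower in this last step (-0.61). *Cdca3*, which helps to degrade the mitotic inhibitor Wee1, fell from -0.32 and -0.13 at P7 to -1.65 and -1.83 at P14 and -2.94 and -2.80 at 10 weeks, a 6.28-fold difference. *Cdc20*, the activator of the anaphase-promoting complex, was 1.79-fold lower at P14 and 3.54-fold lower at 10 weeks. In the chromosomal passenger complex, which corrects faulty attachments of chromosomes, *Birc5* (survivin) was 5.95-fold and *Cdca8* (borealin) 4.53-fold lower at 10 weeks than at P7. Other probes of these genes were lower by less, with log2 changes of -0.94 and -1.67 (a bound) for *Birc5* and -1.21 for *Cdca8*.

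Among the spindle and cytokinesis genes 6 of 9 were lower at P14 and 7 of 9 at 10 weeks. *Prc1*, which bundles microtubules of the central spindle, was at 0.46 and 0.46 at P7, -0.80 and -0.96 at P14, -1.66 and -1.80 at P35 and -1.97 and -2.05 at 10 weeks, 5.55-fold lower in all. The spindle factors *Tpx2* and *Nusap1* were 3.63-fold and 3.86-fold lower over the same span, and the motors *Kif20a* and *Kif23* 3.3-fold and 2.31-fold lower. The probe for another transcript of *Tpx2* was not called (0.14). *Kif11*, which pushes the spindle poles apart, and *Kif2c*, which shortens microtubules, were at least 2.59-fold and 1.42-fold lower. *Racgap1*, the partner of Kif23 in the centralspindlin complex, and *Hmmr*, a spindle-associated hyaluronan receptor, were not called at any step, with -0.33 ± 0.051 and -0.30 ± 0.097 from P7 to 10 weeks.

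Kinetochore genes differed in their timing. *Cenpa*, the histone H3 variant that marks centromeres, was at -0.77 and -0.75 at P7 and -0.79 and -0.75 at P14 and only then fell to -1.88 and -1.92 at P35. Its change was -0.0053 ± 0.018 over the first step and -1.13 ± 0.052 over the next. *Cenpe*, a kinetochore motor, changed by -1.26 ± 0.075 in the first step and -0.76 ± 0.026 in the next. The checkpoint kinase gene *Bub1* was at least 2.16-fold lower at P14 and at background from then on, and its relative *Bub1b* changed by -0.84 ± 0.017 in the first step. *Nuf2* and *Ndc80* form the same microtubule-binding complex, and their change from P7 to 10 weeks was -0.97 ± 0.10 and -0.88 ± 0.22, with *Ndc80* above background on 1 of 2 arrays at P14, P35 and 10 weeks.

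Licensing and origin genes were lower in 7 of 9 cases at P14 and in 7 of 9 at 10 weeks. The subunits of the Mcm helicase were all lower at P14, by 1.56-fold for *Mcm4* at the least and 2.79-fold for *Mcm6* at the most. *Mcm6* was at 2.88 and 2.71 at P7, 1.38 and 1.26 at P14, 0.84 and 0.57 at P35 and 0.69 and 0.64 at 10 weeks and was the only licensing or origin gene that was lower again at P35. *Mcm3* was at 0.71 and 0.78, -0.47 and -0.55, -0.79 and -0.82 and -1.10 and -0.85 at the same ages. *Mcm4*, *Mcm5* and *Mcm7* were not called after P14, and over the whole span they were 1.49-fold, 1.57-fold and 1.88-fold lower. *Cdt1*, the loader of the helicase, was 2.77-fold lower at 10 weeks. *Cdc45*, which starts the helicase, did not follow (0.29 ± 0.037), and *Cdc6*, the other loader, was above background on both arrays only at P7.

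The enzymes of nucleotide supply differed among themselves. *Rrm2*, the regulated subunit of ribonucleotide reductase, was at 1.70 and 1.56 at P7, 0.17 and 0.093 at P14, -0.79 and -0.89 at P35 and -1.26 and -1.21 at 10 weeks, 7.29-fold lower in all. *Tk1*, thymidine kinase, was 2.99-fold lower at P14 and 5.0-fold lower at 10 weeks. *Pcna*, the clamp that holds polymerases on DNA, was 1.54-fold lower. *Tyms*, thymidylate synthase, ran the other way without a call (0.47 ± 0.13). The G1 genes *Ccnd1*, *Ccne1* and *E2f1* changed by 0.44 ± 0.057, 0.36 ± 0.019 and -0.066 ± 0.12 from P7 to 10 weeks, and *E2f1*, a transcription factor of replication genes, was lower only at P14 (-0.50 ± 0.055).

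**Figure D3:**
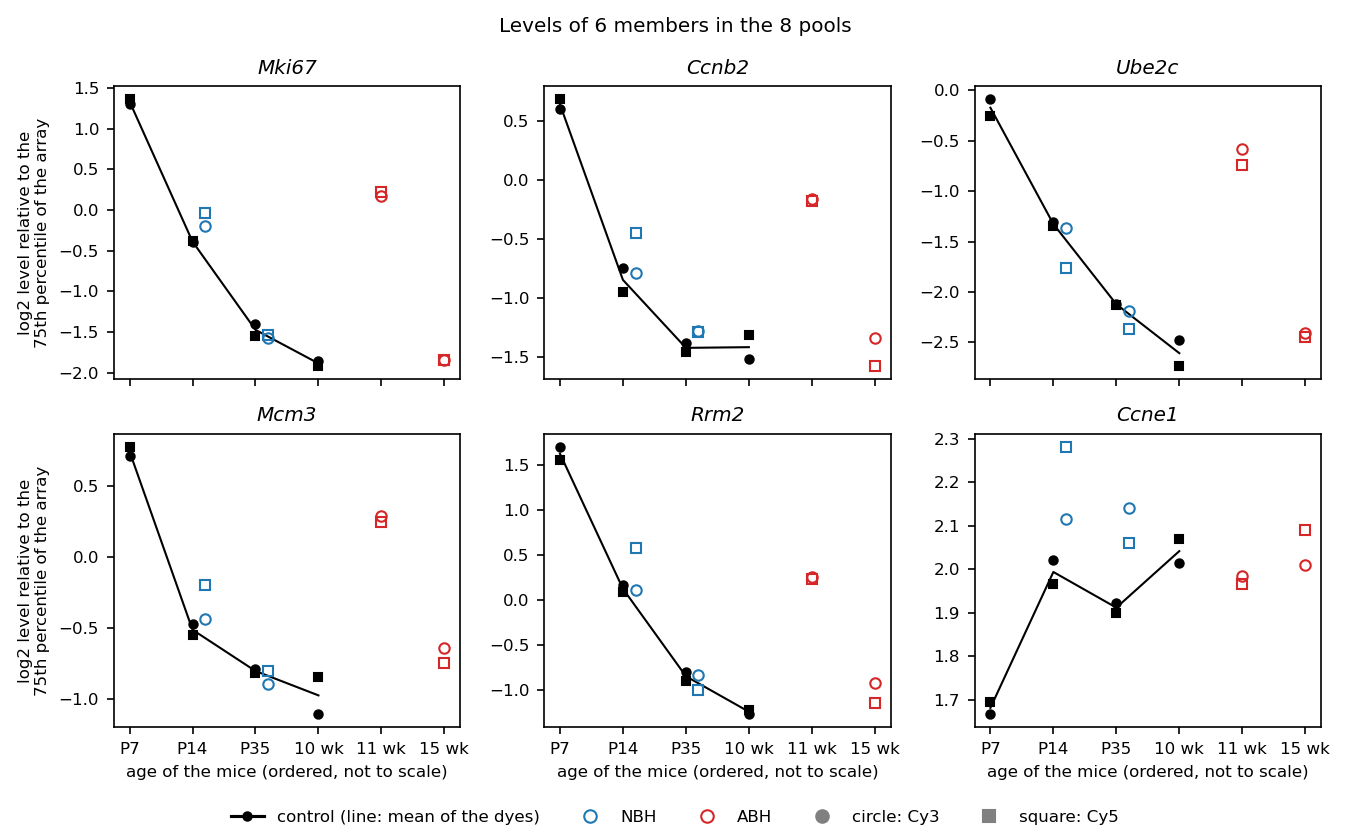
Log2 level relative to the 75th percentile of the array (vertical axis) of 6 members in control (black), NBH (blue) and ABH (red) pools, ordered by age (horizontal axis, not to scale), with circles for Cy3 and squares for Cy5 and a line through the mean of the control pools. In 5 of the 6 genes the control line falls and ABH 1 week lies above every control pool from P14 on, while *Ccne1* stays between 1.67 and 2.28.

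After NBH no member was called, which is close to the small share of all genes called. At 1 week 0 of 42 members were higher and 0 lower than in the control pool of P14, where 0.414% of all genes were higher and 0.401% lower. The median change was 0.12 for the members and 0.07 for all genes. *Mki67* was at -0.20 and -0.035 in NBH 1 week against -0.40 and -0.38 in the control, a change of 0.27 ± 0.10. *Ccnb2* was at -0.79 and -0.45 against -0.74 and -0.95, and the values of these pools overlapped. Over the members, Cy3 and Cy5 changes differed with an SD of 0.33 here and 0.14 to 0.28 in the other comparisons. *Ndc80* came nearest to a call, at -1.90 and -2.73 against -3.26 and -3.30, or 0.97 ± 0.55, with 1 of 2 control arrays above background and a change past the limit with Cy3 only. At 4 weeks 0 of 39 members were higher and 0 lower than at P35 (0.214% and 0.737% of all genes), and all changes lay between -0.16 (*Ube2c*) and 0.27 (*Nusap1*). Choroid plexus markers were high in both NBH pools, and their part in these values was not tested.

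At 1 week after ABH most cell division genes stood above the control pool of 10 weeks. Here 26 of 43 members were higher, 2 of them as bounds (*Cdk1* and *Top2a*), and 0 lower. Of all genes 4.69% were higher and 5.78% lower. Some members entered only through ABH 1 week, since either pool could pass the background filter. With all 4 arrays above background, 23 of 37 members were higher, a share not counted for all genes. The median change was 0.92 for the members and -0.05 for all genes, and 39 of the 43 were above 0, a share not counted for all genes. The 26 came from every role but the G1 genes, with 4 of 8 licensing and origin genes, 2 of 4 DNA synthesis genes, 6 of 7 mitotic cyclins and kinases, 2 of 2 passenger complex genes, 3 of 6 kinetochore genes, 4 of 8 spindle genes, 2 of 2 chromosome structure genes and 3 of 3 mitotic exit genes. All 26 were among the 36 of 45 members that were lower at 10 weeks than at P7. Both calls use the same control pool of 10 weeks, so that part of this overlap is built in.

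*Mki67* was at 0.18 and 0.23 in ABH 1 week against -1.85 and -1.92 in the control, 2.08 ± 0.082 on the log2 scale or 4.24-fold higher. Its other probe gave a change of 2.13. The mitotic exit genes followed closely. *Cdca3* was at -0.93 and -0.80 against -2.94 and -2.80 (4.03-fold) and *Ube2c* at -0.58 and -0.74 against -2.48 and -2.74 (3.85-fold, with 2.02 on the log2 scale from its other probe). *Cdc20* was 2.67-fold higher. In each of the 3 the lowest lesion value lay above the highest control value.

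Of the mitotic cyclins and kinases, *Foxm1* alone was not higher. *Cdk1*, at -1.42 and -1.51 after ABH and below background in the control, was at least 3.99-fold higher, but another, dimmer probe of the gene was lower as a bound (-0.54). *Ccnb1* was 2.94-fold higher with a probe at -1.33 and -1.27 against -2.81 and -2.90, while of its dimmer probes the compared probe was not called (-0.07) and the mean over probes gave 0.46. *Ccnb2* was at -0.16 and -0.17 against -1.52 and -1.31 (2.38-fold). The changes were 1.15 ± 0.12 for *Ccna2*, 1.07 ± 0.11 for *Plk1* and 0.92 ± 0.019 for *Aurka*. *Foxm1* was at -2.24 and -2.21 against -2.10 and -2.36, and its values overlapped between the pools.

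*Birc5* and *Cdca8* were 3.12-fold and 1.86-fold higher. Of the 2 other probes of *Birc5*, 1 was higher and 1 was not called (0.45), and the other probe of *Cdca8* was not called (0.58). *Prc1* was at -0.17 and -0.22 against -1.97 and -2.05, 3.52-fold higher. *Tpx2*, *Nusap1* and *Kif20a* changed by 1.27 ± 0.10, 1.19 ± 0.27 and 1.19 ± 0.18, with 1 of 2 control arrays above background for *Nusap1*. A dim probe for another transcript of *Tpx2* was lower (-0.52), and the mean over its probes gave 0.37. *Top2a* was at least 2.74-fold higher. The kinetochore genes *Cenpe*, *Nuf2* and *Cenpa* were 2.17-fold, 2.04-fold and 1.97-fold higher (log2 change of 0.62 for *Nuf2* as the mean over its probes), whereas *Bub1b* (0.67 ± 0.13) and *Kif23* (0.59 ± 0.17) passed the limit with 1 dye only.

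Replication genes split after ABH. *Rrm2* was at 0.27 and 0.24 against -1.26 and -1.21 and *Tk1* at -1.13 and -1.12 against -2.60 and -2.83, 2.8-fold and 3.02-fold higher. *Mcm3* was at 0.29 and 0.25 against -1.10 and -0.85 (2.37-fold). *Mcm6*, *Mcm2* and *Cdt1* were 1.82-fold, 1.67-fold and 1.63-fold higher, while *Mcm4*, *Mcm5* and *Mcm7* each changed by 0.26 without a call, although the Mcm proteins act as a single ring. *Pcna* (0.31 ± 0.17), *Cdc45* (-0.26 ± 0.19) and *Tyms* (-0.43 ± 0.063) were not called, the last being the lowest change among the members. In G1, *Ccnd1* was at 2.90 and 2.87 against 2.40 and 2.33, a change of 0.52 ± 0.032 that stayed under the limit with both dyes, and *Ccne1* (-0.066 ± 0.051) and *E2f1* (-0.19 ± 0.056) lay below 0.

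**Figure D4:**
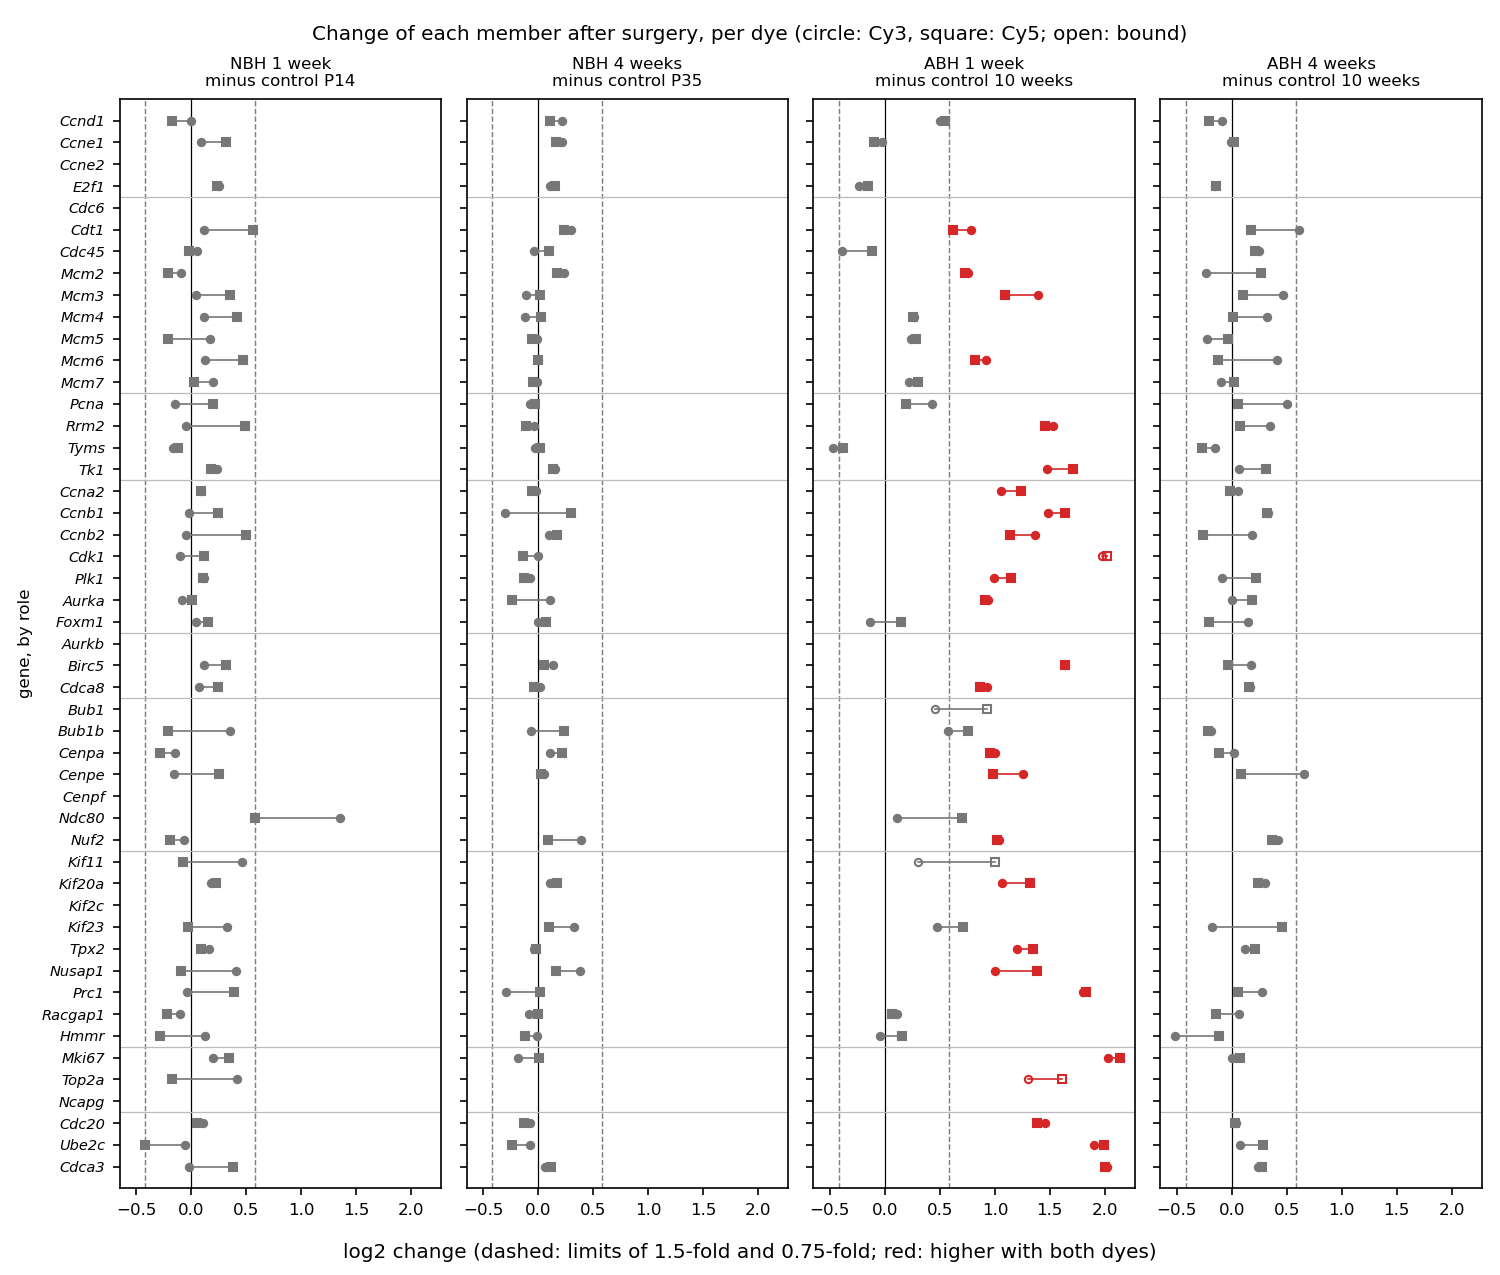
Log2 change of each compared member (rows, grouped by role) in the 4 lesion comparisons (panels), with circles for Cy3, squares for Cy5, open symbols for bounds and dashed lines at 1.5-fold and 0.75-fold. Red marks members higher with both dyes, 26 in ABH 1 week and 0 in the other 3 panels.

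At 4 weeks after ABH no member was called, which is close to the small share of all genes called. In ABH 4 weeks 0 of 37 members were higher and 0 lower than in the control pool of 10 weeks (0.43% and 0.215% of all genes), and the median change was 0.09. *Mki67* was at -1.85 and -1.84 and *Ube2c* at -2.41 and -2.45, which left 0.040 ± 0.050 and 0.18 ± 0.15 to the control. *Cdk1*, *Top2a* and *Nusap1* were above background on neither array. Each of the 26 members higher at 1 week was lower in ABH 4 weeks than in ABH 1 week with both dyes, by a median of 1.18 on the log2 scale. These 26 were picked for a high value in ABH 1 week, which favors such a difference. Choroid plexus markers were high in ABH 4 weeks and within the range of the controls in ABH 1 week, and their part in this difference was not tested.

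The 26 members did not return to the level of P7. ABH 1 week lay below control P7 with both dyes for 25 of the 26 and above it for 0, by a median of -0.73. It lay above control P14 for 25 and above control P35 for all 26. The exception against P14 was *Cenpa*, at -1.05 and -1.13 in ABH 1 week and -0.79 and -0.75 at P14. The median level of the 26 was 0.0037 at P7, -1.11 at P14, -1.80 at P35 and -1.99 at 10 weeks, and it was -0.86 in ABH 1 week, -1.06 in NBH 1 week, -1.81 in NBH 4 weeks and -1.85 in ABH 4 weeks. Between the lesion pools at 1 week, ABH lay above NBH with both dyes for 21 of the 26 and below it for *Cenpa*. The 26 were picked for a high value in ABH 1 week, which favors that pool in each of these comparisons. The counts are therefore a description of the 26, and they were not taken over the other members.

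Members with a larger fall between P7 and P14 tended to stand higher after ABH. Across the 39 members measured without a bound in both comparisons, which share no pool, the 2 changes had a Pearson r of -0.78 and a Spearman rho of -0.79 (r of -0.77 with Cy3 and -0.76 with Cy5 alone). Genes are not independent replicates and both comparisons use the same probes, so that these values are a description. *Cenpa* and *Nuf2* departed from it, with changes of -0.0053 and -0.26 in the first and 0.98 and 1.03 in the other.

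**Figure D5:**
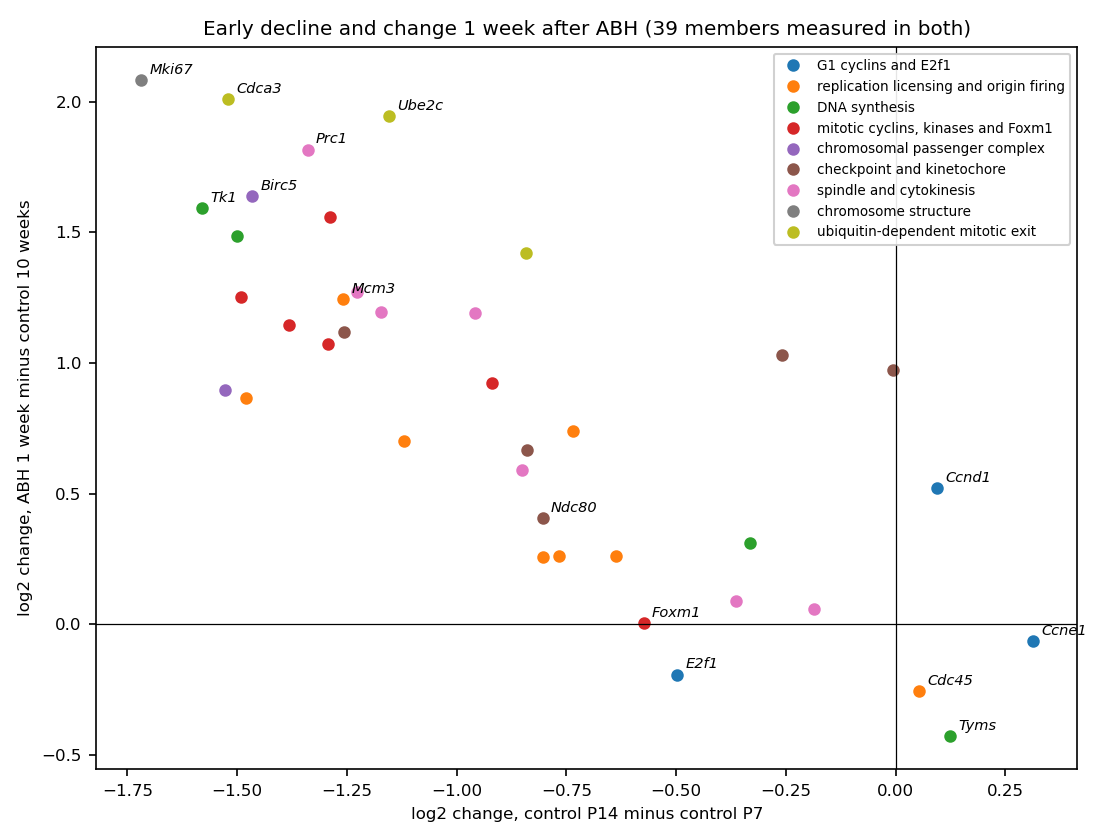
Log2 change from control P7 to control P14 (horizontal axis) against log2 change from control 10 weeks to ABH 1 week (vertical axis) for 39 members measured in both, colored by role. The points run from the upper left, with *Mki67* at -1.72 and 2.08, to the lower right, with *Tyms* at 0.12 and -0.43.

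Of 148 further cell cycle genes, a smaller part was called. At P14 60 of 145 were lower and 7 higher than at P7, where 14.9% of all genes were lower and 8.46% higher. At P35 19 of 126 were lower than at P14 (all genes, 6.14%) and 2 were higher (2.36%), *Anln* (1.39) and *Incenp* (0.76). Among the replication genes *Uhrf1*, which keeps DNA methylation through replication, changed by -2.39 from P7 to 10 weeks, and among the mitotic genes *Pbk*, a mitotic kinase, by -2.86. The growth regulator *Myc* changed by -2.73 and *Mycn* by -2.15. After NBH 1 gene was lower at 1 week (*Knstrn*, -0.65) and 1 at 4 weeks (*Rbl1*, -0.48). These calls are close to the shares of all genes that were lower (0.401% and 0.737%). At 1 week after ABH 22 of 136 were higher and 3 lower, against 4.69% and 5.78% of all genes, and *Pbk* (2.29), *Ckap2* (1.74), *Uhrf1* (1.48) and *Cdca5* (1.40) changed most among those measured without a bound. The 3 lower genes, a smaller share than over all genes, were *Chek1* (-0.71), *Cit* (-0.55) and *E2f7* (-0.55). At 4 weeks after ABH 0 of 126 were called (all genes, 0.43% higher and 0.215% lower).

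Of 18 inhibitors of the cell cycle and arrest genes, 7 were lower and 3 higher at 10 weeks than at P7 (all genes, 21.2% and 15.4%), with a median of -0.28. *Cdkn1a* (p21), which halts the cycle after damage, changed by -0.37 from P7 to 10 weeks and by -0.0033 in ABH 1 week, and *Cdkn1b* (p27), which holds cells in rest, by -0.62 and -0.011. *Cdkn2c*, an inhibitor of Cdk4 and Cdk6, was the only gene of the 18 called 1 week after ABH (0.80, higher). This is close to the 4.69% of all genes that were higher. The 3 higher at 10 weeks than at P7 were *Gadd45a*, *Gadd45b* and *Btg2* (1.54, 1.47 and 0.79).

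Markers of some other cells were called in ABH 1 week, where 4.69% of all genes were higher and 5.78% lower. In ABH 1 week 6 of 9 microglia and macrophage markers were higher, led by *Lyz2* (5.26) and *Fcgr3* (1.44), while *Tmem119* (0.41) and *P2ry12* (0.52), markers of resting microglia, were not called. Their summed level was 122 against 53.8 to 96.1 in the control pools and 94.2 to 97.6 in the other lesion pools. Pericyte and meningeal fibroblast markers were higher in 4 of 8 cases, led by *Col1a1* (4.62) and *Col1a2* (3.47), with a summed level of 63.8 against 12.8 to 24.0 in the controls and 12.2 to 20.2 in the other lesion pools. *Gfap* (2.95), the filament of reactive astrocytes, was the only astrocyte marker of 8 that was called, and *Vim* (2.44) the only progenitor marker of 8 called higher, while *Eomes* was lower as a bound. Oligodendrocyte progenitor markers were called in 0 of 8 cases, with a summed level of 38.4 in ABH 1 week, 29.3 at 10 weeks and 42.1 to 62.8 in the younger controls. Blood markers were higher in 3 of 4 cases, with *Alas2* at 2.11 and *Hba-a1* at 0.59. Markers of neurons, immature neurons, endothelium, myelinating oligodendrocytes and striatum were called in 0 cases. Ependymal markers were higher in 2 of 7 cases, markers of lymphocytes were lower in 3 of 5 and of olfactory bulb in 4 of 8, and of the 6 choroid plexus markers 1 was higher and 1 lower. None of the defining markers of microglia, pericytes or oligodendrocyte progenitors was at background in ABH 1 week or its control. Over the control pools many markers moved as well. The summed level of immature neuron markers was 182 at P7, 136 at P14, 90.3 at P35 and 88.9 at 10 weeks, that of progenitor markers 26.7, 20.1, 16.7 and 16.3, and that of pericyte and meningeal markers 24.0, 20.8, 14.2 and 12.8. In the other direction, markers of myelinating oligodendrocytes were at 24.8 at P7 and at 116 to 165 later, of striatum at 32.6 and 117 to 166, of microglia at 53.8 and 88.9 to 96.1 and of endothelium at 30.5 and 45.6 to 49.4. The summed level of the 49 members was 70.8, 43.1, 37.0 and 36.0 at these ages and 52.6 in ABH 1 week. The part of these cells in the levels of the members was not tested.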

How the data were processed

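According to the methods the mice were male, 4 for each group. The paper also reports very low *Xist*, an RNA of X chromosome inactivation, in NBH 1 week and ABH 4 weeks. Whether sex differed between pools was not tested. RNA of the 8 pools was labeled with Cy3 and with Cy5. It was hybridized singly to 2 Agilent chips, giving 16 arrays. The authors deposited the scanner intensity files made with Agilent Feature Extraction 11.0.1.1 and a series value table of processed signals. This table was taken to log2 and served only as an alternative. Probe coordinates in these files refer to mm9 and were not used. For the labeled dye, median spot intensity was background corrected by normexp with an offset of 50 (limma 3.58.1, R 4.3.3), taken to log2 and set relative to the 75th percentile of each array over all probes that are not controls. Tables were handled in Python 3.11.15 with scipy 1.17.1, pandas 2.3.3 and numpy 2.4.6. Spots of a probe were averaged, and outlier spots were left out. Genes were named through the RefSeq accession of the probe (GRCm38.p6), by which 26582 of 55681 probes were assigned to 20145 genes. Of the listed markers and cell cycle genes, *Cd68* and *Kif14* were not analysed here.

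Changes were taken between arrays of the same dye. The fold limits are those that the study's methods give for RT-PCR, applied here to the arrays, and percentages for all genes were counted by the same rule. Genes entered a comparison if either pool had 2 arrays well above background for the probe. A pool with neither array above background was set to the higher of its own value and the lowest signal well above background on that array, which gives a bound. With 1 pool per condition there was no test and no p-value, and the number of arrays limits the precision. The calling steps were tested on simulated data. The members and lists were chosen with earlier results of these data known. All members were described, those with the strongest or departing changes in full, and other genes were named by the size of their change among those called. The alternatives covered signal, offset, scaling, background filter, limits, probe choice, dye and control pool.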

Additional observations from a re-analysis of the deposited data

Results flagged for a closer look

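In some members both arrays of the NBH pool and both arrays of the ABH pool lay on opposite sides of their controls. In none was this difference tested, and the share of all genes with such opposite signs was not counted. Because both arrays of a pool carry the same RNA, their agreement in sign is technical. At 1 week NBH was below and ABH above its control for 6 members, of which 4 were called after ABH. The changes after NBH and ABH were -0.15 and 0.74 for *Mcm2*, -0.21 and 0.98 for *Cenpa*, -0.13 and 1.03 for *Nuf2* and -0.24 and 1.95 for *Ube2c*, and without a call -0.088 and 0.52 for *Ccnd1* and -0.16 and 0.089 for *Racgap1*. *Ccne1* (0.20 and -0.066) and *E2f1* (0.24 and -0.19) ran the other way, also without a call. At 4 weeks no such member was called. The ABH changes were 0.28 for *Pcna*, 0.21 for *Rrm2*, 0.16 for *Tpx2*, 0.035 for *Cdc20* and 0.18 for *Ube2c*, with NBH below its control, and -0.15 for both *Ccnd1* and *E2f1*, with NBH above. In the channel without labeled RNA, 1 member, *Kif2c*, was well above background, and this on 1 of the 16 arrays.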

How the results depend on the processing

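With 12 other ways of processing and 3 exchanges of the control pool, 169 of 198 counts of called members stayed within 1.5 times their value. Of 1414 single changes, 1339 kept their call, 75 kept their direction only and 0 reversed. Most of the counts were 0 in the main analysis, and stricter limits cannot raise a 0. Other limits also leave each log2 change as it was, so that part of this stability was fixed in advance. The count of 26 higher members in ABH 1 week became 18 with 2-fold limits, 23 where all 4 arrays had to be above background, 22 with the mean of all probes, 31 with median scaling, 28 against control P35, and 26 and 32 with 1 dye alone. Over all genes 765 were higher in ABH 1 week in the main analysis. This became 369 with 2-fold limits, 712 with all 4 arrays above background and 727 with the mean of all probes. It rose to 1356 with median scaling, 784 against control P35, 1038 with Cy5 alone and 977 with Cy3 alone. The following counts moved. With 2-fold limits 21 members were lower at P14 than at P7 and 2 at P35 than at P14 (all genes, 397 and 91). From P35 to 10 weeks 0 members were called in the main analysis. Lower members numbered 5 with the processed signal, 7 in the unscaled value table, 4 with quantile normalization and 6 with median scaling. They numbered 3 without offset, 2 with the mean of probes and 1 to 2 with 1 dye alone. *Mki67* and *Ube2c* were the most frequent, and *Foxm1* was the 1 higher member with the processed signal and without offset. Over all genes 134 were lower in this step in the main analysis. That number was 247 with the processed signal, 451 in the value table, 257 with quantile normalization and 924 with median scaling. It was 193 without offset, 123 with the mean of probes, and 401 and 334 with 1 dye alone. Counts of 0 became 1 in these cases: *Ccnd1* higher at P35 than at P14 in the value table, *Ndc80* higher in NBH 1 week with the processed signal, the value table and without offset, *Tyms* lower in NBH 1 week in the value table and in ABH 1 week with these 3 settings, *Foxm1* lower in NBH 4 weeks against control 10 weeks, and *Bub1b* lower in ABH 4 weeks with the processed signal (2 in the value table, with *Hmmr*). With 1 dye alone, the higher members were 0 to 2 in NBH 1 week, 0 to 1 in NBH 4 weeks and 0 to 2 in ABH 4 weeks, and the lower members 0 to 1 in NBH 1 week, ABH 1 week and ABH 4 weeks. The causes were not tested. Median scaling moved the median of all genes from -0.05 to 0.21 in ABH 1 week (members, 1.18), from -0.02 to -0.15 between P7 and P14 (members, -1.05) and from 0.02 to -0.22 between P35 and 10 weeks (members, -0.32), and the unscaled value table moved it to -0.23 between P7 and P14 (members, -1.53). Between P14 and P35 the lower share of all called genes was 72.2%, and 37.8% in the value table.

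No paired analysis was possible because each condition is a single pool, and its 2 arrays share their dyes, not animals, with those of other pools. Differences between mice, between days of surgery and between chip rows cannot be separated from the conditions. Members near background, such as *Ndc80*, *Kif2c*, *Cdc6* and *Top2a*, are limited by their signal, and bounds understate their change.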
